A study of Mus musculus with 12 samples.

Results

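The report covers 10 genes of the contractile actin cytoskeleton and its adhesions, Acta2, Tagln, Cnn1, Myl9, Tpm1, Thbs1, Zyx, Vcl, Actn1 and Flna, in mouse embryonic stem cells whose ribosomes could be stripped of RACK1. The 10 were taken by their symbols from the 18120 genes present in both of the authors' tables, and each symbol was found once per table. They were chosen by name with the measured folds of these tables already known, so their folds and calls at either time are a description of the members, and nothing is supported with them. The study used E14-mESC, a mouse embryonic stem cell line, with the genotype RACK1-AID/RPS26-Tir1. All 12 libraries carry both fusions: the small-subunit ribosomal protein RACK1 has an auxin-inducible degron, and TIR1, the plant receptor that hands the degron to the proteasome when auxin (indole-3-acetic acid, IAA) is present, is tied to the ribosomal protein RPS26. Cells were given IAA or the solvent DMSO for 5 days (3 libraries each), or were taken 10 days after IAA had been withdrawn from cells treated for 5 days, beside a DMSO control of that time (3 libraries each). Whether the replicates are separate cultures, and whether the line is 1 clone, is not given in the sources used here, so p-values cover the spread from library to library, which could be technical.

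Contractile cells pull on their surroundings through bundles of actin and non-muscle or smooth muscle myosin, which end in focal adhesions, the plaques that join integrins in the membrane to actin. Transcription of many of these genes is under serum response factor (SRF), which binds a DNA element called the CArG box. Its coactivators MRTF-A and MRTF-B are held by free actin monomers and released when actin is driven into filaments. Naive mouse embryonic stem cells grow as rounded colonies with few stress fibres, and cells that leave the naive state or differentiate spread and build more of them.

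Neither table has columns of single libraries, so each gene is given by its mean level over 6 libraries, in log2 CPM (counts scaled to the size of the library), and by its log2 fold with the standard error (SE) that the fold and its t statistic imply. The level of a group was derived as the mean plus or minus 0.5 of the log2 fold, which is approximate where the authors' fit weighted libraries. If the lowest mean that many genes share marks 1 read in 1 library with 0.5 added to each count, the effective depth was about 23300000 reads per library at 5 days and 21200000 at 10 days, as geometric means. Reads per library given below rest on that depth. The sign of the fold has no stated direction in the headers; here a positive fold is taken to mean more RNA after IAA. Over 4766 genes called at 5 days, without the members, the mean level in the 5-day table minus that in the 10-day table had a regression slope on the 5-day fold of 0.532 ± 0.0114 (SE over genes, which are not independent). Over the 3886 of these genes with a mean of at least 1 log2 CPM in both tables the slope was 0.592 ± 0.0168. Positive folds read as more RNA after IAA give 0.5, and the reverse -0.5, if the controls of the 2 times are alike.

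The promoters of 8 members were in a RefSeq table (GRCm38.p6) of windows from 250 bases before to 50 after a start site, and Tagln and Thbs1 were not. These stretches are shown because they hold the elements closest to the SRF site, with the matches in capitals and positions counted from the RefSeq start. A CArG box is a pair of C, then 6 bases that are each A or T, then a pair of G. It reads the same on both strands, and a CArG-like match here may have 1 G or C among the 6 central bases and so includes the box itself.
Acta2: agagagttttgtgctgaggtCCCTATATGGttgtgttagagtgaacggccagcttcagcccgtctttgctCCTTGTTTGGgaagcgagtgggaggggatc
Myl9: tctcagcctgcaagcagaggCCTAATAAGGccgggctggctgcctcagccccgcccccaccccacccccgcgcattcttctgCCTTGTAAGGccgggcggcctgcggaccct
Vcl: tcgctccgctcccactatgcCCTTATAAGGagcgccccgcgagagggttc
The Acta2 stretch lies at chr19:34255378-34255477 on the minus strand, the Myl9 stretch at chr2:156775283-156775394 on the plus strand and the Vcl stretch at chr14:20929151-20929200 on the plus strand. Myl9 held a full CArG box from -161 to -152 and a CArG-like match from -99 to -90, and Vcl a full box from -227 to -218. Acta2 held 2 CArG-like matches, from -84 to -75 and from -34 to -25, and no full box. A full box was present in 2 of the 8 member promoters and in 1.63% of 32851 mouse promoters, and a CArG-like match in 3 of 8 and in 9.98%.

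The core of the site of the TEAD factors, GGAATG on either strand, was present in the windows of Acta2, Tpm1, Vcl and Flna, 4 of 8, and in 14.7% of all promoters. The AP-1 motif TGANTCA was present in the window of Zyx, from -121 to -115, and in 7.81% of all promoters. Windows of Cnn1 and Actn1 held none of these letters. The motifs do not overlap each other, apart from the full boxes, which also count as CArG-like. Each is a match of letters in a short window and not a measured site.

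After 5 days of IAA the RNAs of a calponin, a thrombospondin, zyxin, transgelin and a tropomyosin were higher by 1.42-fold to 2.48-fold, while that of alpha-actinin-1 was slightly lower and the other 4 did not pass. RNA was taken from whole cultures, so more or fewer cells of a kind and more or less RNA per cell cannot be told apart. Of the 10 members 5 passed as higher and 1 as lower in the authors' deposited table (limma, Benjamini-Hochberg or BH adjusted p under 0.05), where 13.5% of all 18765 genes passed as higher and 12.1% as lower. Those counts come from values already known when the genes were chosen. The members' median log2 fold was 0.37, against 0.01 over all genes.

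Cnn1 (ENSMUST00000001384.5, 7 exons on the plus strand of chromosome 9, 22099216 to 22109630, in GENCODE M21 on GRCm38) encodes calponin 1, which binds actin and slows myosin in smooth muscle. Its derived level was 2.14 log2 CPM in DMSO and 3.45 in IAA, or about 103 and 254 reads per library. In the authors' deposited table its log2 fold was 1.31 ± 0.17 (SE, 3 against 3 libraries, limma adjusted p = 9.06e-05). It had the highest fold of the 10 members.

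Tagln (ENSMUST00000034590.3, chromosome 9, 45929619 to 45936058, minus strand, 5 exons) encodes transgelin or SM22, a small actin-bundling protein and an early marker of smooth muscle. Its derived level was 4.45 log2 CPM in DMSO and 5.14 in IAA. The authors' deposited table gave a log2 fold of 0.70 ± 0.15 (BH-adjusted limma p = 0.00427).

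Acta2 (ENSMUST00000039631.8, chromosome 19, 34241090 to 34255590, minus strand, 9 exons in the next version of the transcript) encodes smooth muscle alpha-actin, the defining protein of smooth muscle and of myofibroblasts. Its derived levels at 5 days, 2.30 log2 CPM in DMSO and 2.29 in IAA, were nearly equal. The log2 fold in the authors' deposited table was -0.005 ± 0.15 (95% interval -0.34 to 0.33, limma adjusted p = 0.984). Its sign turned with the centre of the folds, to 0.01 with the median fold set to 0.

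Myl9 (ENSMUST00000088552.6, chromosome 2, 156775420 to 156781658, plus strand, 4 exons) encodes a regulatory light chain of myosin II, whose phosphorylation switches contraction on. It stood at 4.33 log2 CPM in DMSO and 4.57 in IAA. Its log2 fold in the authors' deposited table, 0.24 ± 0.14, did not pass (95% interval -0.07 to 0.54, limma adjusted p = 0.25).

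Tpm1 (ENSMUST00000113707.8, chromosome 9, 67022590 to 67049406, minus strand, 9 exons) encodes tropomyosin 1, a coiled coil that lies along actin filaments and controls access of myosin. It has 21 annotated transcripts, and the tables give 1 value for the gene, so its muscle and non-muscle isoforms were not told apart. Its derived level was 6.38 log2 CPM in DMSO and 6.88 in IAA, and in the authors' deposited table it rose by 0.50 ± 0.12 (BH-adjusted limma p = 0.00666).

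Thbs1 (ENSMUST00000039559.8, chromosome 2, 118111876 to 118127133, plus strand, 22 exons) encodes thrombospondin 1, a secreted matrix protein that can activate latent TGF-beta and is the one member that acts outside the cell. It stood at 2.84 log2 CPM in DMSO and 4.02 in IAA. The log2 fold in the authors' deposited table was 1.18 ± 0.24 (BH-adjusted limma p = 0.00284), and its SE was the largest of the 10 at this time.

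Zyx (ENSMUST00000164375.3, chromosome 6, 42349630 to 42360213, plus strand, 11 exons) encodes zyxin, a LIM-domain protein that moves to stretched actin fibres and recruits factors that repair them. Derived levels were 4.32 log2 CPM in DMSO and 5.29 in IAA, or about 465 and 915 reads per library. In the authors' deposited table its log2 fold was 0.98 ± 0.10, with the smallest adjusted p of the 10 (limma, 2.67e-05).

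Of the 3 members with the most reads, Vcl and Flna did not pass and Actn1 changed by little. Vcl (ENSMUST00000022369.8, chromosome 14, 20929398 to 21033676, plus strand, 21 exons) encodes vinculin, which links talin and alpha-catenin to actin under tension. It stood at 7.09 log2 CPM in DMSO and 7.18 in IAA, a log2 fold of 0.09 ± 0.07 in the authors' deposited table (95% interval -0.07 to 0.24, limma adjusted p = 0.41). Flna (ENSMUST00000114299.7, chromosome X, 74223461 to 74249820, minus strand, 47 exons) encodes filamin A, which crosslinks actin into networks and ties it to integrins. Its log2 fold in the authors' deposited table was 0.04 ± 0.05 (95% interval -0.07 to 0.15, limma adjusted p = 0.624), with derived levels of 9.17 and 9.21 log2 CPM, and it turned to -0.09 with length and GC trends removed.

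Actn1 (ENSMUST00000021554.15, chromosome 12, 80167547 to 80260371, minus strand, 21 exons) encodes alpha-actinin-1, which crosslinks antiparallel actin filaments in stress fibres and at adhesions. Its derived level was 8.11 log2 CPM in DMSO and 7.90 in IAA. It fell by 0.22 ± 0.05 on the log2 scale in the authors' deposited table (BH-adjusted limma p = 0.00505), the one member called as lower.

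**Figure D1:**
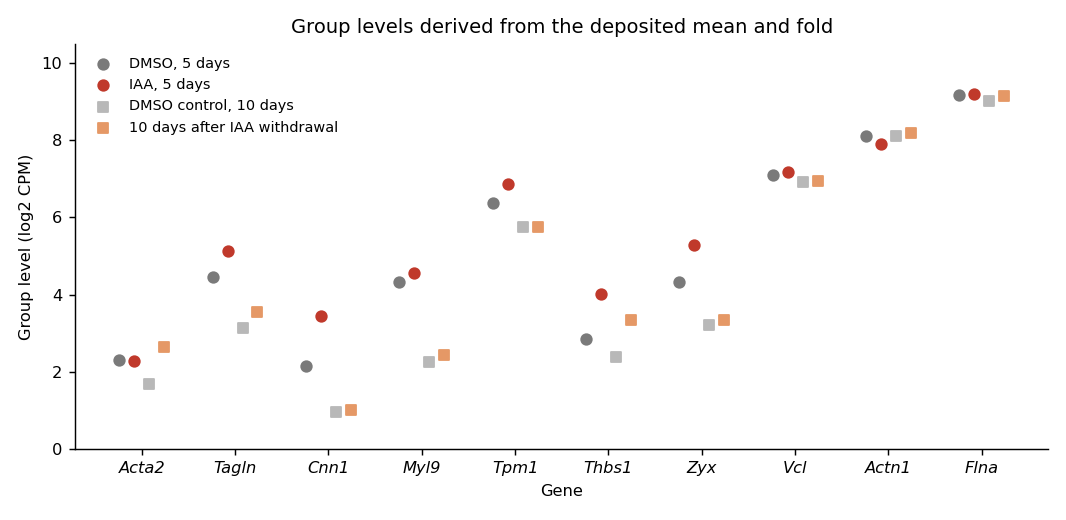
Derived group levels (log2 CPM, vertical axis) of the 10 genes in the 4 groups, circles for 5 days and squares for 10 days, each the authors' mean over 6 libraries plus or minus 0.5 of the log2 fold. No error bar can be given for a single group. Tagln, Cnn1, Myl9, Tpm1 and Zyx stand lower in both 10-day groups than in both 5-day groups, while Vcl, Actn1 and Flna lie at nearly the same height in all 4.

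At 10 days after withdrawal no member passed in the authors' deposited table, where 0% of 18712 genes did and the lowest limma adjusted p was 0.822. At an unadjusted p of 0.05 there were 805 genes, and 3 of the 10 members were among them, all higher, where 2.42% of all genes were higher at that threshold. The 3 were Thbs1, Acta2 and Tagln. The members' median log2 fold was 0.12, against 0.00 over all genes.

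Thbs1 stood at 2.38 log2 CPM in the 10-day DMSO control and at 3.34 after IAA withdrawal. Its log2 fold in the authors' deposited table was 0.95 ± 0.23 (95% interval 0.46 to 1.45, limma adjusted p = 0.901, unadjusted p = 0.000914), and its p was number 5 in rank among the 18712 genes. Acta2 stood at 1.69 in the control and 2.63 after withdrawal, or about 68 and 131 reads per library. Its log2 fold in the authors' deposited table was 0.94 ± 0.27 (95% interval 0.37 to 1.5, limma adjusted p = 0.901, unadjusted p = 0.00314), number 32 in rank. Tagln, at 3.14 and 3.55 log2 CPM, had 0.41 ± 0.18 (BH-adjusted limma p = 0.901, unadjusted p = 0.0417) in the authors' deposited table.

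For the other 7 the 10-day values in the authors' deposited table ran from -0.01 ± 0.10 for Tpm1 to 0.16 ± 0.23 for Myl9, all with a limma adjusted p of at least 0.901. Cnn1, the member with the highest 5-day fold, had 0.06 ± 0.30 there, with a 95% interval of -0.59 to 0.70 at a level of about 41 reads per control library. Zyx had 0.13 ± 0.16 in the authors' deposited table (95% interval -0.20 to 0.47). The derived levels of Zyx were 3.21 log2 CPM in the control and 3.34 after withdrawal.

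**Figure D2:**
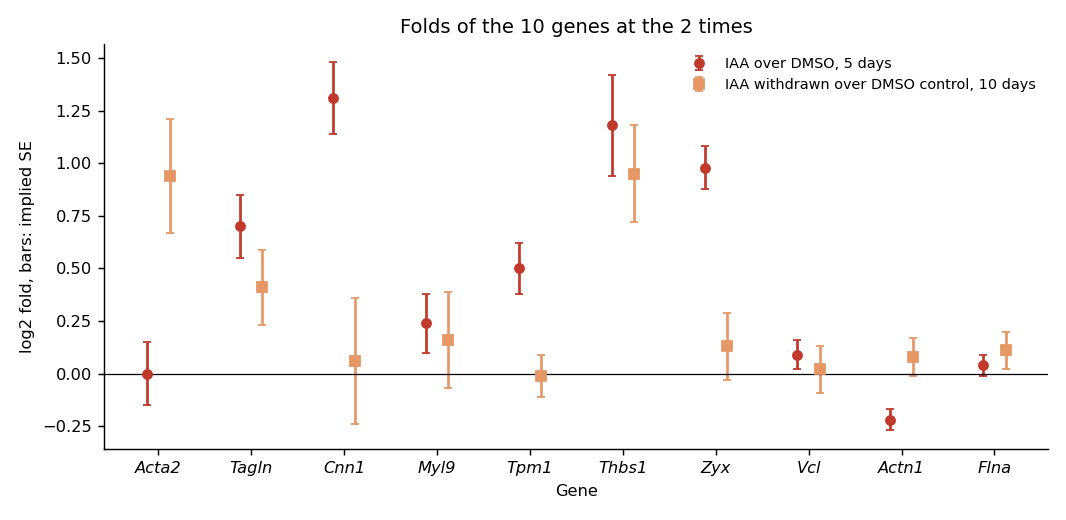
Log2 folds of the 10 genes in the authors' deposited tables, with bars of 1 implied SE, for IAA over DMSO at 5 days (circles) and for withdrawn IAA over its DMSO control at 10 days (squares). Cnn1, Zyx and Tpm1 stand high at 5 days and near 0 at 10 days, Thbs1 stands near 1 at both, and Acta2 is near 0 at 5 days and at 0.94 at 10 days.

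The 5-day and 10-day folds were compared gene by gene with a z test from both folds and the SEs implied for them, with BH adjustment across all 18120 genes. The 2 comparisons share no library. The test takes the SEs as exact, though they rest on 13.4 and 15.2 degrees of freedom, so its p-values are somewhat too small. Calls near the threshold, those of Acta2 and Actn1, are the least secure. The difference passed for 5 of the 10 members and for 10.4% of all genes, and as the folds themselves were known when the genes were chosen, nothing is read from that count. Folds were higher at 5 days for Cnn1 (difference 1.26 ± 0.34, SE, adjusted p = 0.00541), Zyx (0.84 ± 0.19, adjusted p = 0.0003) and Tpm1 (0.52 ± 0.15, adjusted p = 0.0134). They were lower at 5 days for Acta2 (-0.94 ± 0.31, adjusted p = 0.0282) and Actn1 (-0.30 ± 0.10, adjusted p = 0.0351). For Thbs1 the difference was 0.23 ± 0.33 (adjusted p = 0.753), and for Tagln 0.29 ± 0.24 (adjusted p = 0.505), with SEs too large to say that the folds of these genes were alike.

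The mean levels of several members differed more between the 2 tables than between IAA and DMSO within either. These means do not depend on which sign favours IAA, but the tables were normalized separately, so the differences are given without a test. Over 11416 genes with a mean of at least 1 log2 CPM in both tables the 10-day mean minus the 5-day mean had a median of 0.02 and quartiles of -0.37 and 0.40. Of the 10 members 9 were lower in the 10-day table, with a median of -0.72.

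Myl9 had a mean of 4.45 log2 CPM in the 5-day table and 2.34 in the 10-day table, a difference of -2.11 that lay at percentile 0.245 of those genes. For Cnn1 the means were 2.79 and 0.98 (difference -1.81), for Zyx 4.81 and 3.27 (-1.53) and for Tagln 4.79 and 3.34 (-1.45). Each of these 4 was lower by over 1 at 10 days, as were 4.87% of the 11416 genes, among which Cnn1 is not counted since its 10-day mean was under 1. Tpm1 (-0.87) and Thbs1 (-0.57) differed less.

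At the other end, Vcl (-0.19), Acta2 (-0.14), Flna (-0.11) and Actn1 (0.16) had nearly the same mean in both tables. Between the DMSO groups alone, with positive folds read as higher after IAA, the difference was -2.08 for Myl9, -1.30 for Tagln, -1.18 for Cnn1 and -1.11 for Zyx. On that reading the level of Myl9 was 4.33 log2 CPM in the 5-day control and 2.25 in the 10-day control, a wider gap than its 0.24 between IAA and DMSO at 5 days. Time in culture and any batch of handling or sequencing cannot be told apart here, as each time was made with its own libraries.

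**Figure D3:**
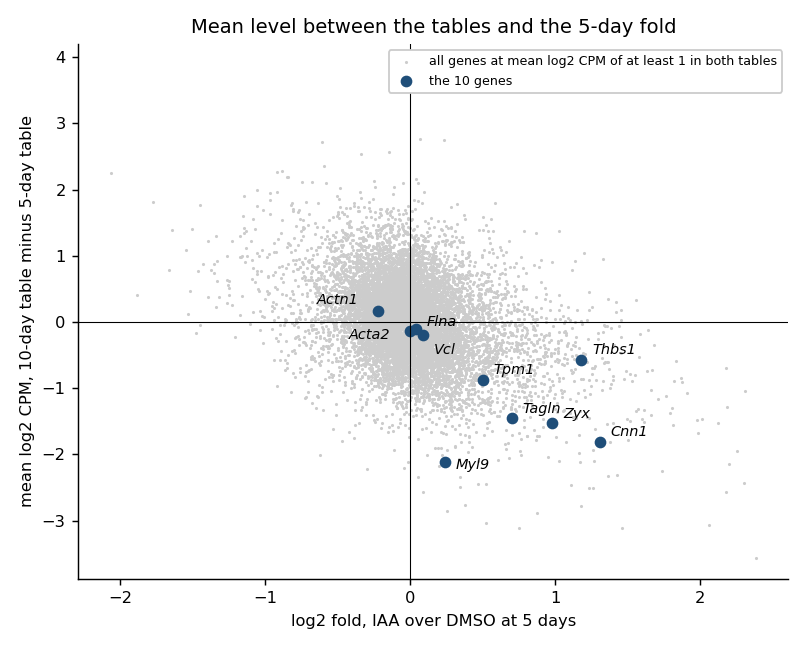
Mean log2 CPM in the 10-day table minus that in the 5-day table (vertical axis) against the 5-day log2 fold of IAA over DMSO (horizontal axis), for the 10 genes (large points) and for all genes with a mean of at least 1 log2 CPM in both tables (small points). Tagln, Zyx and Cnn1 combine a positive 5-day fold with a mean lower by over 1 at 10 days, Myl9 has the lowest difference of the 10 at -2.11 with a fold of 0.24, and Vcl, Acta2, Flna and Actn1 lie near the centre.

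Levels of different genes are compared here per kilobase of transcript, as log2 CPM less the log2 of the length in kilobases. In the 5-day DMSO cells the order was Actn1 (6.21), Flna (6.09), Tpm1 (5.45), Vcl (4.69), Myl9 (4.16), Tagln (3.77), Zyx (2.65), Acta2 (1.47), Cnn1 (0.89) and Thbs1 (0.29). Each neighbour in that order lay apart by more than 2 SEs of the gap, with the SE of a group mean taken from that of the fold. The spread in these SEs leaves out any error in the 1 transcript length used per gene, so the order rests on those lengths. For Acta2 the length used was 1781 bases, while its GENCODE M21 transcript has 2035. In IAA at 5 days Actn1 and Tpm1 (6.0 and 5.96), Tagln and Myl9 (4.47 and 4.39), and Thbs1 and Acta2 (1.47 and 1.46) did not differ beyond that spread. In the 10-day control Cnn1 was the lowest of the 10 on this scale, at -0.30, and did not differ from Thbs1 at -0.16 beyond its spread. The crosslinkers Actn1 and Flna held the first places in that order in both DMSO groups and after withdrawal. In IAA at 5 days Flna (6.13) lay above Actn1 by more than that spread.

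Close relatives of the members did not share 1 direction at 5 days. Among 5 other actin genes, Actg1, the cytoplasmic gamma-actin, rose by 0.43 ± 0.07 in the authors' deposited table (BH-adjusted limma p = 0.000753) and Actb, cytoplasmic beta-actin, had -0.22 ± 0.06 (adjusted p = 0.0152, or 0.0861 without its length, GC and expression trends). By the same scaling 1 of these genes rose and 0 fell, and without length and GC trends alone 2 rose and 1 fell. The muscle actins did not pass: the authors' deposited table gave Acta1 0.28 ± 0.22 and Actc1 1.37 ± 0.48. The other calponins did not follow Cnn1, with Cnn2 at 0.09 ± 0.08 and Cnn3 at -0.06 ± 0.05 in the authors' deposited table, neither past the threshold. Of the transgelin paralogs Tagln2 had -0.45 ± 0.08 in the authors' deposited table (BH-adjusted limma p = 0.000879) and Tagln3 did not pass.

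Of 20 other tropomyosin and myosin II genes 4 rose and 5 fell, with a median log2 fold of -0.07. Without length and GC trends 3 rose and 4 fell, and without length, GC and expression trends 4 rose and 3 fell. One of the 5 that fell in the authors' deposited table, the light chain gene Myl6, had -0.31 ± 0.06 there (BH-adjusted limma p = 0.00191). It turned to 0.02 without length, GC and expression trends (adjusted p = 0.877). Cald1, which encodes the actin and myosin binder caldesmon, rose by 0.66 ± 0.10, and the tropomyosins Tpm2 and Tpm4 by 0.52 ± 0.14 and 0.34 ± 0.06, in the authors' deposited table. Tpm3 (-0.09 ± 0.06) did not pass. Falls were seen in Myl6b, a myosin essential light chain, at -0.62 ± 0.17, and in Myh14 and Tmod3, each at -0.33, in the authors' deposited table. The regulatory light chains closest to Myl9 had -0.07 ± 0.07 (Myl12a, not passing) and -0.19 ± 0.06 (Myl12b, limma adjusted p = 0.0239, and 0.20 with length, GC and expression trends removed) in the authors' deposited table.

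Of 20 actin crosslinkers and filament binders 6 rose and 5 fell (median -0.05), and with length and GC trends removed 5 rose and 10 fell. With length, GC and expression trends removed 5 rose and 5 fell. The alpha-actinins went apart, the 2 muscle forms Actn2 and Actn3 among them. In the authors' deposited table Actn2 had 1.0 ± 0.18, Actn3 -0.76 ± 0.07 and Actn4 -0.28 ± 0.06, all past the threshold. Pls3, a plastin that bundles actin, rose by 0.69 ± 0.12 and Csrp2, a LIM-only protein of muscle, had -0.57 ± 0.07 there. The filamin gene Flnc had 0.26 ± 0.08 in the authors' deposited table, where it passed (BH-adjusted limma p = 0.0248), but not without its length and GC trends (0.492).

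Of 37 focal adhesion genes 10 rose and 10 fell, with a median of 0.12. With the median fold set to 0, 12 rose and 10 fell. Without length and GC trends 9 rose and 12 fell, and the same counts held with the expression trend removed too. Of 5 genes taken here as relatives of Zyx 4 rose. The authors' deposited table gave Ajuba 0.66 ± 0.08, Lpp 0.49 ± 0.12, Limd1 0.48 ± 0.08 and Trip6 0.35 ± 0.07, all past the threshold. Wtip, with 0.15 ± 0.06 there, did not pass. Fblim1, which may also be counted as a relative, was left out of these 5 and passed as lower. The count thus depends on which genes are taken as relatives. Removing length, GC and expression trends ended the call for Lpp (adjusted p = 0.0692), and Fblim1, which binds filamin, had -0.66 ± 0.06 in the authors' deposited table. The largest changes that passed were those of Ctnna2, an alpha-catenin of neurons related to vinculin, with 1.91 ± 0.66 at under 1 CPM, and of Fermt1, a kindlin that activates integrins, with 1.71 ± 0.23, against Parvb, a parvin, with -0.98 ± 0.10 and the integrin gene Itgb3 with -0.81 ± 0.25, all in the authors' deposited table. The call for Ctnna2 ended once length and GC trends were taken out (adjusted p = 0.0558), and Ctnna1 had -0.21 ± 0.05 (BH-adjusted limma p = 0.00683) in the authors' deposited table.

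Thbs1 did not stand alone in its family. Of 5 other measured genes of thrombospondins and their receptors 3 rose and 0 fell in the authors' deposited table: Thbs4 by 2.41 ± 0.39, Thbs3 by 1.52 ± 0.15 and Comp, cartilage oligomeric matrix protein, by 0.94 ± 0.31. In DMSO at 5 days Thbs4 and Comp lay under 1 CPM, at -0.51 and -0.60 log2 CPM. The call for Comp ended once length and GC trends were taken out (adjusted p = 0.0627). By count 3 genes of this list rose and 0 fell with those trends removed, and 2 rose and 0 fell with the expression trend removed too. Thbs2 (0.48 ± 0.33) and the receptor gene Cd47 (0.43 ± 0.17) did not pass in the authors' deposited table. None of the family passed at 10 days, where the authors' deposited table gave Thbs3 -0.03 ± 0.20 and Thbs4 -0.52 ± 0.60 beside the 0.95 of Thbs1. Of 15 TGF-beta ligands, receptors and targets 3 rose (Smad3, Skil and Smad4) and 1 fell, and without length and GC trends 2 rose and 2 fell, with the call for Smad4 lost (adjusted p = 0.0675). Without length, GC and expression trends 3 rose and 2 fell. The leading values were Smad3 at 0.51 ± 0.09, Skil at 0.41 ± 0.06 and Tgfbi at -1.17 ± 0.15 in the authors' deposited table.

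SRF and its coactivators were read beside their targets. Srf itself had a log2 fold of 0.28 ± 0.08 at 5 days in the authors' deposited table, Mkl1 (MRTF-A) 0.22 ± 0.07 and Mkl2 (MRTF-B) 0.23 ± 0.08, with BH-adjusted limma p-values of 0.0211, 0.0436 and 0.0411. Once trends on length and GC were taken out these 3 did not pass (adjusted p = 0.652, 0.358 and 0.304). Elk1, a partner of SRF that competes with MRTFs, had -0.31 ± 0.10 in the authors' deposited table (BH-adjusted limma p = 0.0441), a call that was lost with the median fold set to 0 (adjusted p = 0.0538).

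Of 28 other genes known as MRTF or SRF targets, some of them also in the lists above, 8 rose and 5 fell, with a median of 0.22. With length and GC trends removed 7 rose and 8 fell. With the median fold set to 0, 10 rose and 5 fell, and with length, GC and expression trends removed 8 rose and 4 fell. Falls were thus the more common only with length and GC trends alone removed. Rises were led by Cald1 and Tpm2, given above, and the falls by Itga5, an integrin subunit, with -0.42 ± 0.06, and Dstn, an actin-severing protein, with -0.30 ± 0.05 in the authors' deposited table. Dstn had -0.15 without length, GC and expression trends and lost its call (adjusted p = 0.0601). No gene of any of these lists passed at 10 days.

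**Figure D4:**
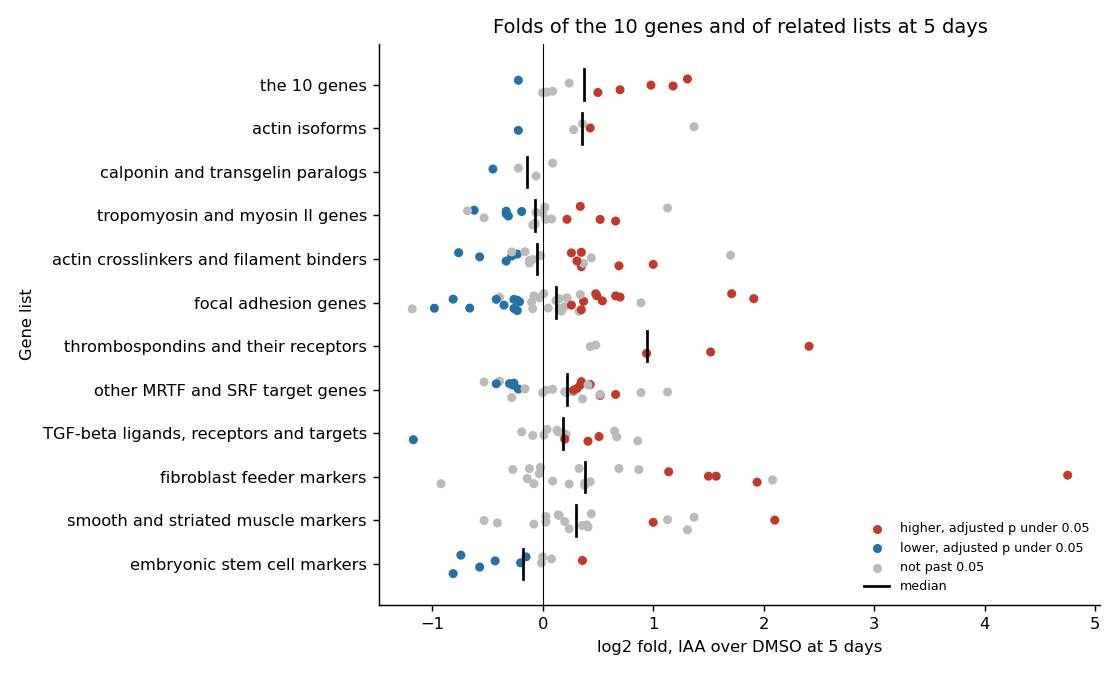
Log2 folds of IAA over DMSO at 5 days in the authors' deposited table for the 10 genes (top) and for the genes of the lists described here, with red for those called higher, blue for those called lower, grey for the rest and a bar at each median. Most lists hold genes called in both directions, with medians between -0.18 and 0.94.

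Markers of other cells were read beside these values. Of 18 smooth and striated muscle markers 2 rose and 0 fell at 5 days, Actn2, given above, and Myod1 with 2.10 ± 0.51 at under 1 CPM in the authors' deposited table. That count depends on which genes are listed. Actn3, the other muscle alpha-actinin given above, was left out of the 18 and passed as lower. The summed derived level of the 18 markers was 34.7 CPM in IAA and 28.1 in DMSO at 5 days, and 23.5 and 23.4 at 10 days. In all 4 groups 9 of the 18 lay under 1 CPM, among them the smooth muscle myosin gene Myh11 and Myocd, the master coactivator of SRF in smooth muscle. Desmin RNA (Des) did not pass, at 0.24 ± 0.13 in the authors' deposited table.

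Of 21 measured markers of fibroblast feeder cells 5 rose at 5 days (Lox, Col6a1, Col6a2, Twist1 and Mmp2) and 0 fell. Their summed level without Fn1, the gene with the most RNA, was 88.6 CPM in IAA and 62.5 in DMSO at 5 days, and 73.4 and 65.7 at 10 days, and with Fn1 it was 710 and 693, then 1340 and 1090. At 10 days 4 of these markers had an unadjusted p under 0.05, all higher as were Thbs1, Acta2 and Tagln, where 2.42% of all genes were higher at that threshold. The authors' deposited table gave Fn1 0.30 ± 0.12, Col1a1 0.88 ± 0.33, Col1a2 1.33 ± 0.59 and Col6a1 1.43 ± 0.62, none past an adjusted p of 0.05. In the 10-day control Col1a2 and Col6a1 lay under 1 CPM, at -0.76 and -2.77 log2 CPM. Markers that were lower at 10 days, none at an unadjusted p under 0.05, were led by Col5a2 (-1.34 ± 0.68) and Dcn (-0.95 ± 0.98). Of the 21 listed at 5 days 9 lay under 1 CPM in every group where they were listed, Col3a1, Col6a1, Dcn, Pdgfra and Prrx1 among them. Of the markers that rose at 5 days, Lox (-4.59 log2 CPM), Col6a1 (-2.43) and Col6a2 (-0.32) lay under 1 CPM in DMSO at that time. The part of such cells in the values of the members was not tested. The 10 stem cell markers included Pou5f1 at 10.61 log2 CPM and Sox2 at 9.05 in IAA at 5 days, so RNA of these genes was present at high levels. Of the 10 markers 6 fell and 1 rose, Lin28a with 0.36 ± 0.08. The largest falls were those of Esrrb (-0.81 ± 0.10, BH-adjusted limma p = 5.7e-05) and Nanog (-0.74 ± 0.06, adjusted p = 3.97e-06) in the authors' deposited table. Without length, GC and expression trends 3 fell and 1 rose, with the calls for Pou5f1, Sox2 and Dppa5a lost (adjusted p = 0.666, 0.339 and 0.289).

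Some features of the transcripts bear on how well the counts can be assigned. Of the stretches of 50 bases in each member's GENCODE M21 transcript, 0.352% in Acta2 and 0.434% in Actn1 also occur in transcripts of other genes, and 0% in the other 8, so these members share little sequence with paralogs at that length. On the opposite strand Zyx overlaps Epha1, an ephrin receptor gene, by 1727 bases, and Epha1 itself had a log2 fold of 1.24 ± 0.12 at 5 days in the authors' deposited table (BH-adjusted limma p = 1.5e-05). Vcl overlaps Ap3m1 by 2235 bases (0.09 ± 0.05, not passing, in the authors' deposited table) and Tagln overlaps Pcsk7 by 108 bases (0.08 ± 0.13, not passing). Antisense RNAs overlap Actn1 (Gm47766 by 929 bases and Gm47767 by 2674), Tagln (Gm48529 by 3627) and Zyx (Gm44284 by 1233), and the lincRNA Gm29233 lies opposite Thbs1 over 597 bases. On the same strand Actn1 overlaps the noncoding transcript Gm47765 by 1269 bases, a pair that counting by strand cannot tell apart either. Whether reads were counted by strand is not given in the sources used here, and without strand the reads of such pairs cannot be told apart where they overlap.

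In length and composition the members were ordinary. Their median transcript length in the authors' annotation was 2784 bases against 2851 for 17400 coding genes, from 1128 in Myl9 to 8456 in Flna, and their GC content ran from 48.6% in Vcl to 56.6% in Myl9 and Zyx. Upstream AUGs, start codons ahead of the coding sequence that can lower its translation, numbered 2 in Tagln, 2 in Tpm1, 1 in Flna and 0 in the other 7, with a median of 1 over all coding genes.

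The genes whose pair of folds lay nearest to the members' medians (0.37 at 5 days, 0.12 at 10 days) were Zfp275, Apbb1, Ptprf, Bcl2l11, Lama5 and Sh3rf1. Likeness was the straight-line distance over only 2 comparisons, among genes with a mean of at least 3 log2 CPM in both tables, and ran from 0.0102 to 0.0225. In the authors' deposited table Ptprf, a receptor tyrosine phosphatase, had 0.35 ± 0.04 at 5 days and 0.12 ± 0.10 at 10 days. Lama5, a laminin chain of basement membranes, had 0.39 ± 0.05 and 0.14 ± 0.12 there.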

How the data were processed

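Poly(A) RNA was made into TruSeq libraries after Trizol extraction, per the labels. The authors deposited 2 tables of their own comparisons, with log2 fold changes, mean log2 CPM, moderated t and log-odds scores, and p-values with BH adjusted values, the columns of a limma result table per the file headers. They also deposited transcript lengths, upstream AUG numbers, GC content as a fraction and folding scores of transcript ends (not used here). Aligner, counter, strand setting, genome build and limma version: not given in the sources used here. Depth of single libraries is unknown.

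Computed here, with Python 3.11.15, numpy 2.4.6, scipy 1.17.1, pandas 2.3.3 and matplotlib 3.10.9, were the SE of a fold (fold divided by t), 95% intervals with the 13.4 and 15.2 degrees of freedom that t and p imply, derived group levels, the z test between the times, and motif matches. Trends removed were cubic in log length, GC and, where named, mean level. The z test and the removal of length and GC trends were run on simulated data. The simulation took the SEs as exact and the noise as normal, so it could not show errors of the z test that come from estimated SEs. Symbols turned to dates (27 per table) were restored through gene IDs. Spans given for the members are those of the whole gene in GENCODE M21 (GRCm38), and exon numbers those of the named transcript. The Acta2 promoter stretch, placed by its RefSeq start, lies inside the gene span given. The authors' build may differ. BH recomputed over the rows differed from the deposited values by at most 4.86e-05.

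The 10 members and all gene lists were chosen with earlier results of these data known. Named are the members, their paralogs, for each list the 2 largest rises and falls that passed, SRF and MRTF genes, and the 6 nearest genes; members of other lists named beyond these (marker genes, Smad4, Des, Myl6, overlapping genes) were chosen after their values were seen. No list was tested, and some genes and 1 list are not reported here.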

Additional observations from a re-analysis of the deposited data

Results flagged for a closer look

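The folds of 5 members differed between the 2 times by the z test of the difference, BH adjusted over 18120 genes. Cnn1 differed by 1.26, Zyx by 0.84 and Tpm1 by 0.52 on the log2 scale, with the higher fold at 5 days. Acta2 differed by -0.94 and Actn1 by -0.30, with the higher fold at 10 days. These 2 calls lay nearest the threshold of a test whose p-values are somewhat too small. How many libraries show each direction cannot be given, and libraries that stand apart were not looked for, since the tables hold no values of single libraries.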

How the results depend on the processing

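The alternatives were a median fold set to 0, trends on length and GC removed, trends on length, GC and expression removed, genes under a mean log2 CPM of 1 left out, and an adjusted p of 0.01. Under each of them 5 members passed as higher and 1 as lower at 5 days, and none passed at 10 days. At 0.01 the 5-day calls over all genes were 1492 higher and 1297 lower, since the threshold is stricter, against 2524 and 2265. Among the members, reversed signs were all of folds that did not pass: Acta2 at 5 days was 0.01 once the median was 0. Without length and GC trends Acta2 was 0.04 and Flna -0.09. At 10 days, with length and GC trends removed, Tpm1 was 0.05, Vcl -0.04 and Flna -0.05, and with the expression trend removed too 0.07, -0.01 and -0.01. Outside the members, Myl6 passed as lower at 5 days and was 0.02 without length, GC and expression trends. The 5 members whose folds differed between the times passed with the median set to 0 and without length and GC trends. At an adjusted p of 0.01 in the z test only Zyx (0.0003) and Cnn1 (0.00541) passed. Tpm1 (0.0134), Acta2 (0.0282) and Actn1 (0.0351) did not. Removal of the expression trend was not run for this difference. With low levels left out 4 passed, since Cnn1 lay under the minimum at 10 days and was not tested. No paired analysis was possible because the tables hold no values of single libraries, and leaving out replicates was not run for the same reason. Depth limits Cnn1 most, at about 41 reads per control library at 10 days.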
